A study of Homo sapiens with 23 samples.

Results

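The subject here is a set of 10 genes of the epithelial-mesenchymal transition, listed by name; no threshold on measured values enters the rule, but the list was drawn up with earlier results of these data known. The set holds the transcription factor genes SNAI1, SNAI2, ZEB1 and TWIST1, the cadherin genes CDH1 and CDH2, and the mesenchymal products VIM, FN1, TGFBI and TGM2. All 10 were found among the 21463 gene rows of the authors' deposited table.

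In an epithelial-mesenchymal transition, epithelial cells loosen their contacts and take on the shape, motility and matrix production of mesenchymal cells. Factors of the SNAIL, ZEB and TWIST families drive it; SNAIL and ZEB proteins bind E-box DNA and repress the E-cadherin gene CDH1. A shift from E-cadherin to N-cadherin (CDH2) and the appearance of vimentin and fibronectin are its classical signs, and TGF-beta is its best known inducer. PC-3, an established human line from a bone metastasis of prostate cancer, is known for a partly mesenchymal make-up, so genes of both states can be followed in it.

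RNA came from PC-3 cells that all carry a lentiviral TetOne construct, in which doxycycline switches on the cDNA of PARG joined to a cleavable mClover3 tag; PARG is the enzyme that trims poly(ADP-ribose) from proteins. Every group belongs to 1 of 2 clones, PC-3-TetOn-PARG-I4 or PC-3-TetOn-PARG-H6, grown for 72 h with doxycycline at 500 ng/ml or with none. Experiment N used cells of passage 5 and a library kit that reads both strands, and experiment B used cells of passage 7, another sequencing centre and a strand-specific kit. This made 8 groups of 3 wells, apart from untreated H6 in experiment B with 2, or 23 libraries in all. Each clone is a single line of cells, no PC-3 cells lacking the construct are part of these comparisons, and a change caused by doxycycline itself cannot be told apart from one caused by PARG. Experiment, passage and kit also cannot be told apart.

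The authors' deposited table gives, for doxycycline against none in each clone and experiment, a fold change, a q-value (a p-value adjusted over all genes) and the higher of the group means in RPKM, reads scaled by exon length and library size, which corrects for gene length so that genes can be compared. The lower group mean was computed here as the higher one divided by the fold, so levels of both groups are given without SD; the table has no value per library. The computed mean is approximate if the folds come from a model with its own normalization, and this carries over to each fall in RPKM and each ratio of levels between clones, experiments or cadherins. Where 2 values stand for a clone, the first is from experiment N and the next from experiment B. A gene is called changed where q is under 0.05, and such a call reflects the spread between wells of 1 clone only. The direction of all folds rests on PARG, listed as 1.35-fold (I4, q = 9.06e-09) and 2.15-fold (H6, q listed as 0) higher in experiment N and 1.40-fold (I4, q = 1.37e-10) and 1.99-fold (H6, q listed as 0) higher in experiment B, all in the authors' deposited table. From the value of a single read in genes of very low level, depth was about 33700000 to 43200000 reads per library in experiment N and 19800000 to 26500000 in experiment B, read from the groups of 3 wells. The RNA is from whole wells, so a change in the number of expressing cells and a change per cell cannot be told apart.

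The DNA before the start of some of these genes is shown because the E-box CACCTG, which reads CAGGTG on the other strand, is the element that SNAIL and ZEB factors bind. RefSeq promoter windows were found for 5 of the 10 genes. SNAI1, SNAI2, TWIST1, CDH1 and TGM2 had none, so the CDH1 promoter itself was not searched. The windows of 4 genes whose level changed in some comparison are printed 5′ to 3′ on the strand of the gene, on GRCh38.p14. They run up to the RefSeq start or, where it comes first, the GENCODE start. Capitals mark the E-box and the GC box GGGCGG, which reads CCGCCC on the other strand, an element bound by factors of the SP family. Both motifs were searched on both strands, and runs of overlapping GC boxes are marked as 1 stretch.
ZEB1 (chr10:31318167-31318416, plus strand): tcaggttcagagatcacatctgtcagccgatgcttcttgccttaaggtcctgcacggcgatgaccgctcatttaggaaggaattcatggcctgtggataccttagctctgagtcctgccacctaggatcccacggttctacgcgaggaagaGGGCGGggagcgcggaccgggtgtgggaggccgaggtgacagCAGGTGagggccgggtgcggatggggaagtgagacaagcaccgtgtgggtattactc
VIM (chr10:17227991-17228240, plus strand): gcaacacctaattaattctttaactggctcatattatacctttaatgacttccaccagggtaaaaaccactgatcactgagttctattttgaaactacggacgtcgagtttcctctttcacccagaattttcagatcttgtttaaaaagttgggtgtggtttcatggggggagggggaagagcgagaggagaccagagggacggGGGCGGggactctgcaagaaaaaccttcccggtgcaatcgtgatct
FN1 (chr2:215436173-215436318, minus strand): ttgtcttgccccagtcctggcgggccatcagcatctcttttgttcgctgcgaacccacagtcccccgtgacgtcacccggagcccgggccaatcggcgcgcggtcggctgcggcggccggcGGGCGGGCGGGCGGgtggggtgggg
TGFBI (chr5:136028738-136028894, plus strand): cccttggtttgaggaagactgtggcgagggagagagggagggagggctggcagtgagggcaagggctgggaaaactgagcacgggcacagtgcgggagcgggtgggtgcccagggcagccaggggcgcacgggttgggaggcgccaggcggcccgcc

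ZEB1 was the gene with an E-box among these 4 windows, 57 bases before its RefSeq start, and the VIM, FN1 and TGFBI windows, like those of CDH2, showed none over 250 bases. Over 250 bases, the ZEB1 and VIM windows printed held 1 GC box each, FN1 held 6 and TGFBI 3, counting overlapping matches. The FN1 and TGFBI prints are shorter than 250 bases. Those of TGFBI and part of those of FN1 fall outside or run past the end of the printed stretch. Across 35116 RefSeq windows of 250 bases, 17.5% held an E-box and 42.6% a GC box. ZEB1 has 6 further RefSeq windows, of which 1 held 2 E-boxes. These are matches of letters and say nothing of binding, and the absence of a match covers only the window searched.

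With doxycycline, 3 of the 10 genes fell in every comparison, namely TGM2, TGFBI and SNAI2. Over the whole table, 1.97% of 15063 genes tested in all 4 comparisons were called lower throughout and 1.73% higher throughout. No member was called higher throughout. In clone I4, TGM2, TGFBI and SNAI2 were the 3 members called lower in either experiment, and 0 were called higher, where 8.53% of all genes were lower and 7.18% higher in experiment N and 6.59% lower and 7.46% higher in experiment B. In clone H6, 5 members were called lower and 2 higher in experiment N, against 7.07% and 6.57% of all genes, and 4 lower and 1 higher in experiment B, against 3.93% and 3.63%. FN1 fell in H6 in both experiments, ZEB1 fell in H6 in experiment N, VIM rose in H6 in both experiments and CDH1 rose in H6 in experiment N. TWIST1, CDH2 and SNAI1 were called in no comparison.

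**Figure D1:**
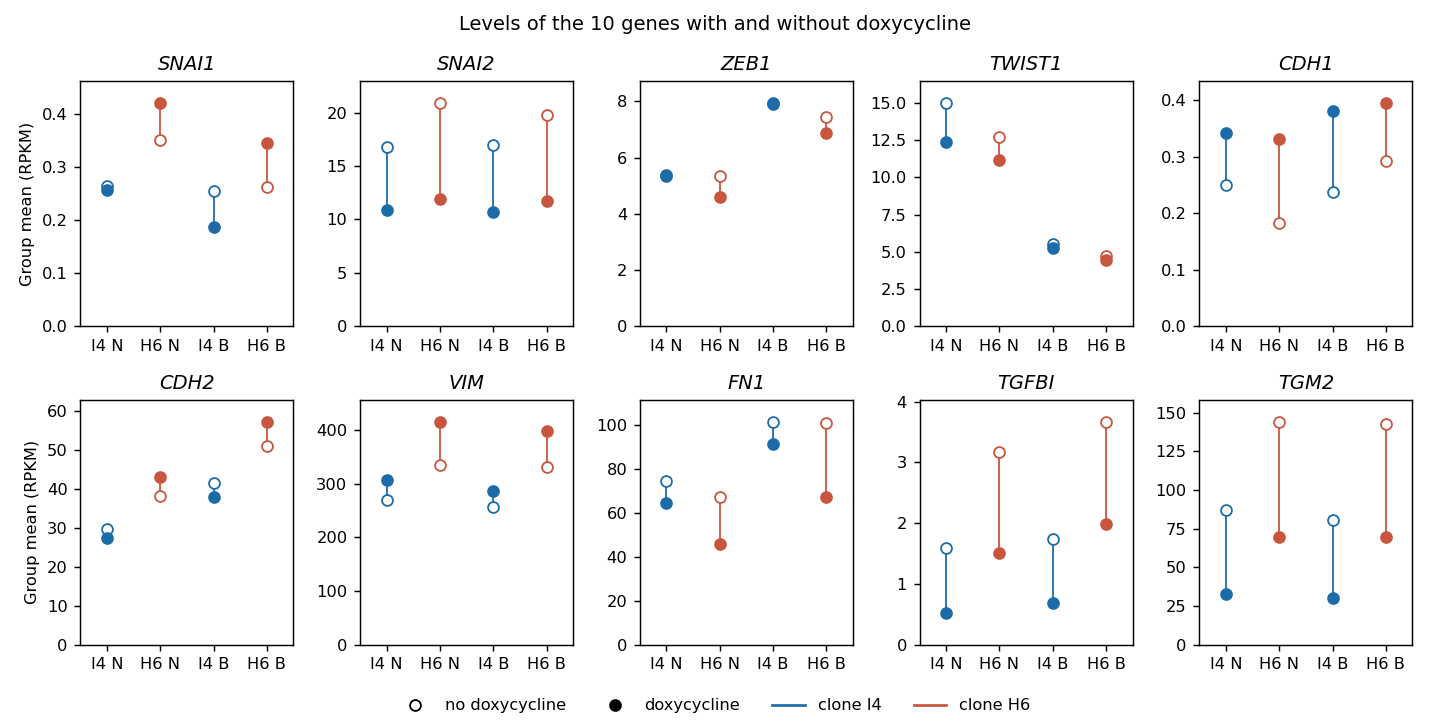
Group means in RPKM of each gene in the 4 comparisons, without (open) and with (filled) doxycycline; blue is clone I4, red is clone H6, and each axis starts at 0. For TGM2, TGFBI and SNAI2 every filled point lies below its open partner, and TWIST1 stands higher in experiment N (12.8 and 15.0 RPKM without doxycycline) than in experiment B (4.69 and 5.53).

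Among the transcription factors, SNAI2, which encodes the repressor SLUG, was the one called throughout, and the most abundant in 7 of the 8 groups (TWIST1 was higher in treated I4 of experiment N). Without doxycycline its level was 16.7 then 16.9 RPKM in I4, against 20.9 then 19.7 RPKM in H6. With doxycycline it was 10.9 then 10.7 RPKM in I4, against 12.0 then 11.7 RPKM in H6. All 4 treated groups thus lay below all 4 untreated groups. In the authors' deposited table SNAI2 was lower by 1.54 then 1.58 times in I4 and by 1.75 then 1.68 times in H6, each with a q listed as 0.

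SNAI1, the founding member of the same family, was close to undetected. Its level without doxycycline was 0.264 then 0.256 RPKM in I4, against 0.351 then 0.262 RPKM in H6, or roughly 9.73 to 21.9 reads per library. The folds of SNAI1 in the authors' deposited table went from 1.37-fold lower (I4, experiment B) to 1.32-fold higher (H6, experiment B), with q-values of 0.886 to 1.00. Changes of this size in SNAI1 were not detectable at this depth.

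ZEB1, a zinc-finger repressor of CDH1 (GENCODE v29, chromosome 10, 31318495 to 31529814, plus strand), stood at 5.37 then 7.93 RPKM in I4, against 5.33 then 7.44 RPKM in H6 without doxycycline. The authors' deposited table lists ZEB1 as 1.16-fold lower in H6 in experiment N (q = 0.0437) and 1.08-fold lower there in experiment B (q = 0.719). In I4 ZEB1 differed by 1.005-fold in each experiment, per the authors' deposited table (q = 1.00 in both). ZEB1 therefore has a single call, just inside the threshold.

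TWIST1, a basic helix-loop-helix factor, differed more between the experiments than with doxycycline. Without doxycycline it measured 15.0 RPKM in I4 and 12.8 RPKM in H6 in experiment N, against 5.53 and 4.69 RPKM in experiment B, a ratio of 2.71 and 2.72. Of 10324 genes with at least 1 RPKM in every comparison, 1.48% in I4 and 0.881% in H6 differed as much or more between the experiments. The TWIST1 gene span is overlapped on the opposite strand by the antisense gene AC003986.2. A kit that keeps both strands cannot tell apart reads of such genes where their exons overlap. Only spans were compared, so whether exons overlap is not known. ZEB1, CDH1, CDH2 and VIM also have antisense genes over their spans, and their untreated ratios of experiment N over B were 0.627 to 1.05. These antisense genes, like AC003986.2, have no row in the deposited table, so their own levels are not known. The part of this overlap in the TWIST1 difference was not tested. With doxycycline, TWIST1 was listed as lower by factors of 1.06 to 1.21 in the authors' deposited table, with q-values of 0.0685 to 1.00.

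The cadherins showed a mesenchymal pattern at baseline: CDH2 was far above CDH1 in every group. CDH1, the adhesion protein of adherens junctions (chromosome 16, 68737225 to 68835548, plus strand), measured 0.250 then 0.237 RPKM in I4, against 0.183 then 0.292 RPKM in H6 without doxycycline. With doxycycline the CDH1 level was 0.342 then 0.382 RPKM in I4, against 0.332 then 0.394 RPKM in H6. The treated groups all lay above the untreated ones. In the authors' deposited table the fold was 1.37 and 1.61 in I4 (q = 0.332 and 0.0835) and 1.81 and 1.35 in H6 (q = 0.0172 and 0.584), so CDH1 passed the test in H6 in experiment N alone. These CDH1 levels rest on about 33.1 to 58.6 reads per library without doxycycline.

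CDH2, the N-cadherin gene (chromosome 18, 27950966 to 28177446, minus strand), measured 29.6 then 41.3 RPKM in I4, against 38.1 then 50.9 RPKM in H6 without doxycycline. With doxycycline it was 27.3 then 37.9 RPKM in I4, against 43.0 then 57.2 RPKM in H6. The sign of the CDH2 fold in the authors' deposited table was negative in I4 (a ratio of 1.09 in both, q = 0.332 and 0.319) and positive in H6 (1.13-fold and 1.124-fold higher, q = 0.0695 and 0.234), and none of the 4 passed. The level of CDH2 was 118 to 208 times that of CDH1 without doxycycline and 79.6 to 145 times with it, a ratio that carries the uncertainty of the low CDH1 counts.

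Beta- and alpha-catenin link cadherins to actin, and p120-catenin binds cadherins near the membrane and steadies them at the surface. CTNNB1 (beta-catenin) stood at 42.4 to 53.1 RPKM and CTNND1 (p120-catenin) at 38.6 to 65.7 RPKM in the authors' deposited table, neither called in any comparison. CTNNA1, the alpha-catenin gene that PC-3 is known to have lost, was listed at 0.00895 to 0.0334 RPKM in the authors' deposited table. The choice of these catenins followed a look at their values.

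VIM, the intermediate filament protein of mesenchymal cells (chromosome 10, 17228259 to 17237593, plus strand), was the most abundant of the 10 transcripts. Without doxycycline it measured 269.9 then 256 RPKM in I4, against 336 then 331 RPKM in H6, and with doxycycline 308 then 287 RPKM in I4, against 416 then 399.7 RPKM in H6. In the authors' deposited table VIM rose in H6 by 1.24-fold (q = 0.0215) and 1.21-fold (q = 0.00676), and in I4 the fold was 1.14 (q = 0.258) and 1.121 (q = 0.103). VIM thus moved in the direction opposite to TGM2, TGFBI and SNAI2 in H6. VIM-AS1 lies antisense over part of VIM and has no row in the table.

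FN1, the fibronectin gene (chromosome 2, 215360440 to 215436172, minus strand), encodes a matrix protein that integrins bind. Without doxycycline its level was 74.2 then 101 RPKM in I4, against 67.1 then 101 RPKM in H6. With doxycycline it was 64.2 then 91.2 RPKM in I4, against 45.5 then 67.2 RPKM in H6. The treated H6 group was the lowest of its experiment each time. In the authors' deposited table FN1 was 1.47-fold (q listed as 0) and 1.497-fold (q = 1.18e-12) lower in H6, against 1.16-fold (q = 0.195) and 1.11-fold (q = 0.161) lower in I4.

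TGFBI encodes a secreted matrix protein that TGF-beta induces and integrins bind (chromosome 5, 136028895 to 136063818, plus strand). Without doxycycline its level was 1.59 then 1.74 RPKM in I4, against 3.18 then 3.67 RPKM in H6. With doxycycline it was 0.523 then 0.688 RPKM in I4, against 1.51 then 1.99 RPKM in H6. Each treated group lay below its control, but treated H6 lay close to untreated I4. The authors' deposited table gives TGFBI as 3.03-fold (q listed as 0) and 2.53-fold (q = 5.59e-14) lower in I4 and 2.11-fold (q listed as 0) and 1.85-fold (q = 5.28e-08) lower in H6.

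TGM2, tissue transglutaminase, cross-links proteins of the matrix and also binds fibronectin (chromosome 20, 38127387 to 38166578, minus strand). Its level without doxycycline was 87.1 then 80.5 RPKM in I4, against 144 then 143 RPKM in H6. With doxycycline it was 32.4 then 30.3 RPKM in I4, against 69.5 then 69.6 RPKM in H6, so that all treated groups lay below all untreated ones. In the authors' deposited table TGM2 was lower by 2.69 then 2.66 times in I4 and by 2.08 then 2.06 times in H6, each with a q listed as 0. In I4 the level fell by 54.7 RPKM in experiment N and fell by 50.2 RPKM in experiment B. In H6 it fell by 74.8 RPKM and fell by 73.5 RPKM, more in absolute level although the fold was smaller. Of the 8 members with a mean level of at least 1 RPKM, it had the largest fall in RPKM in every comparison. RPRD1B overlaps part of TGM2 on the opposite strand and differed by at most 1.014-fold in each comparison of the authors' deposited table.

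**Figure D2:**
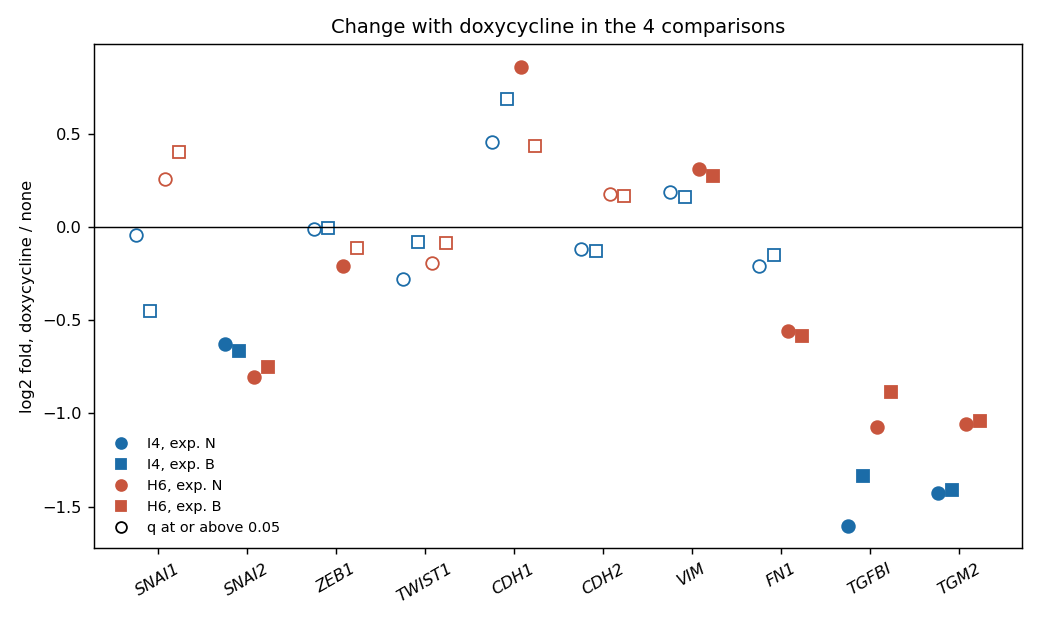
Log2 fold with doxycycline (y axis) of the 10 genes in the 4 comparisons; circles are experiment N, squares experiment B, blue is I4, red is H6, and open symbols have q at or above 0.05. TGFBI spans -1.60 to -0.88, TGM2 -1.43 to -1.04 and SNAI2 -0.80 to -0.62, and CDH1 lies above 0 in all 4 with 1 filled symbol.

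The clones differed in how far some members moved, and the order of the clones was not the same for each gene. The following differences are log2 folds of H6 minus those of I4; they could not be tested without values per library. For TGFBI the difference was 0.53 in experiment N and 0.45 in experiment B, and for TGM2 it was 0.37 in both, that is, a smaller fall in H6. FN1 had differences of -0.35 and -0.43, a larger fall in H6. CDH2 showed 0.29 in both experiments, with opposite signs of the fold in the clones. SNAI2 (-0.18 and -0.09), ZEB1 (-0.20 and -0.11), VIM (0.12 and 0.11) and TWIST1 (0.08 and -0.003) differed less. The low genes differed more but unevenly: SNAI1 had 0.30 and 0.86, the latter the largest difference of any member, and CDH1 had 0.41 then -0.25, a change of sign between the experiments. Across the 10324 genes of at least 1 RPKM the median size of this difference was 0.09 in either experiment, and 1.42% and 3.02% of genes differed by as much as TGFBI, 4.02% and 5.14% as much as TGM2, 4.72% and 3.43% as much as FN1, and 7.05% and 9.28% as much as CDH2.

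PARG itself was induced less in I4, as given above. TGFBI and TGM2 fell more in I4, and FN1 had the lower log2 fold in H6, so the members did not share 1 order with PARG. SNAI2 and ZEB1 also had the lower log2 folds in H6, by differences that many genes show. In experiments N and B, 19.9% and 51.9% of genes of at least 1 RPKM differed by as much as SNAI2. For ZEB1 the shares were 16.05% and 45.6%. A link with PARG was not tested.

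**Figure D3:**
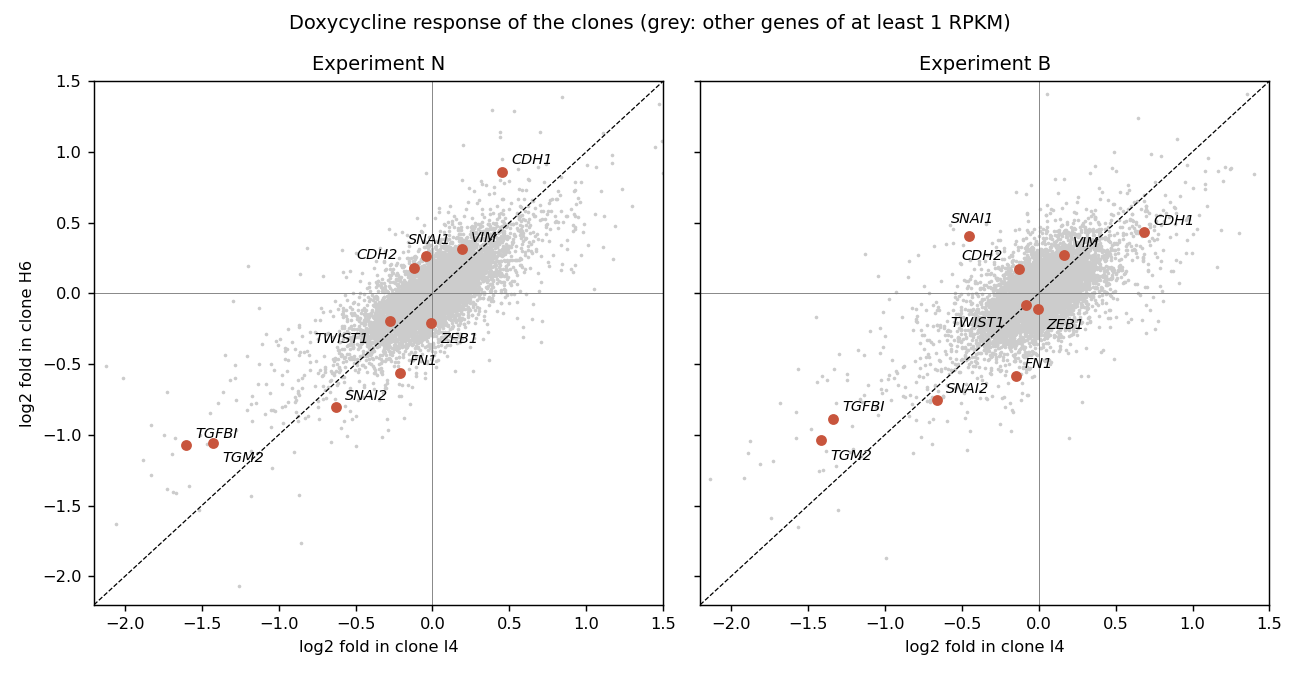
Log2 fold in clone H6 (y axis) against clone I4 (x axis) in experiments N and B; the 10 genes are red and named, other genes of at least 1 RPKM are grey, 16 and 17 of them lie outside the axes, and the dashed line marks equal folds. TGFBI and TGM2 lie above the line and FN1 below it in both panels, and CDH2 lies left of 0 and above 0.

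Untreated clones also differed, most for TGFBI and TGM2. Untreated H6 held 2.002 and 2.11 times the TGFBI level of untreated I4, and 1.65 and 1.78 times the TGM2 level. Here 1.05% and 0.843% of genes of at least 1 RPKM differed as much as TGFBI between untreated clones, and 2.78% and 2.11% as much as TGM2. VIM was 1.24 and 1.29 times, CDH2 1.29 and 1.23 times and SNAI2 1.25 and 1.17 times as high in H6, while TWIST1 was 0.851 and 0.848 times as high. FN1 (0.905 and 0.993) and ZEB1 (0.992 and 0.938) were near equal. SNAI1 was 1.33 and 1.02 times as high in H6, and CDH1 0.732 then 1.23 times, so its order changed between experiments. With doxycycline the gap widened for TGFBI and TGM2, to 2.89 times in each experiment for TGFBI and to 2.14 and 2.30 times for TGM2, and FN1 came to 0.709 and 0.736 times the level of I4. None of these level differences between clones has a test.

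Other genes of the transition were described by lists chosen by role and with earlier results of these data known, so their counts are no test of an excess. Of 167 genes outside the 10, 149 were tested in all 4 comparisons; 10 were called higher in all 4 and 10 lower. Over all genes tested in all 4, 1.73% were called higher and 1.97% lower throughout, and the counts of each list stand beside these same shares; nothing particular to a list was tested. The members' own medians of log2 fold, over the 8 with a mean level of at least 1 RPKM, were -0.24 then -0.14 in I4 and -0.38 then -0.35 in H6. Over all genes at that level the median lay between -0.01 and 0.01, and the medians of the lists use the same minimum level.

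Of 22 other transcription factors of the transition, 20 were tested throughout and 1 was called throughout. ETS1, a factor of invasion and angiogenesis genes, was lower by factors of 1.31 to 1.60 in the authors' deposited table. The list's median log2 fold lay between -0.08 and -0.01. ZEB2, the close relative of ZEB1, was at 0.164 to 0.401 RPKM in the authors' deposited table and not called.

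Regulators of the epithelial state did not move as a block. Of 17 listed, 14 were tested throughout, 2 rose in all 4 comparisons and 1 fell. FOXA1, a pioneer factor of prostate epithelium, was higher by factors of 1.61 to 1.96 and KLF4 higher by factors of 1.31 to 1.40 in the authors' deposited table. EHF, an epithelial ETS factor, was lower by factors of 1.69 to 2.27 in the authors' deposited table. GRHL2 and ESRP1, which sustain CDH1 expression and epithelial splicing, stood at or below 0.0325 and 0.124 RPKM in the authors' deposited table. Other regulators of the list were expressed, and 7 of the 17 had a mean level of at least 1 RPKM. ESRP2, the relative of ESRP1, stood at 4.11 to 5.28 RPKM and KLF5 at 28.7 to 47.5 RPKM in the authors' deposited table. Neither was called in any comparison, and both were picked with their values known.

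Genes of epithelial adhesion and junctions had no member called lower in any comparison. Of 25 tested, 2 rose in all 4 comparisons, and 6 in I4 and 10 in H6 were called higher in experiment N, against 4 and 5 in experiment B. Over all genes the share called higher was 7.18% and 6.57% in experiment N and 7.46% and 3.63% in experiment B, in I4 and H6. The share called lower was 8.53% and 7.07% in experiment N and 6.59% and 3.93% in experiment B. MAL2, a protein of apical transport, was higher by factors of 1.56 to 2.30 and the junction molecule F11R higher by factors of 1.14 to 1.22 in the authors' deposited table. For the list as a whole, the median log2 fold came to 0.11 then 0.15 in I4, against 0.21 then 0.19 in H6.

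Mesenchymal products beyond the 10 went both ways. Of 41 listed, 36 were tested throughout, 2 rose in all 4 comparisons and 2 fell. TNC, the matrix protein tenascin-C, was lower by factors of 1.31 to 1.502 and COL6A2, a collagen VI chain, lower by factors of 1.24 to 1.34 in the authors' deposited table. SPARC, another matrix protein, was higher by factors of 2.71 to 3.49, at a level of at most 1.24 RPKM, and MYL9, a myosin light chain, higher by factors of 1.23 to 1.48 in the authors' deposited table. CDH11, a further mesenchymal cadherin, was 1.32-fold (q = 1.19e-07) and 1.37-fold (q = 1.26e-07) lower in H6 and 1.06-fold (q = 0.610) and 1.096-fold (q = 0.258) lower in I4 in the authors' deposited table, and was chosen after its values were seen. The list had medians of -0.16 then -0.13 in I4, against -0.14 then -0.13 in H6.

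In the TGF-beta pathway 28 genes were tested, of which 5 fell in all 4 comparisons and 2 rose. INHBA, the activin A subunit, was lower by factors of 2.39 to 3.22 and SMURF2, a ubiquitin ligase of the pathway, lower by factors of 1.26 to 1.37 in the authors' deposited table. CTGF, a matricellular target, was higher by factors of 1.37 to 2.08 in the authors' deposited table. PMEPA1 and SMAD3 also fell throughout and SMAD6 rose. Of the 3 genes of TGF-beta itself in the list, TGFB1 was called in no comparison. TGFB2 fell in 3 of the 4 comparisons of the authors' deposited table, by a factor of 1.70 (q listed as 0) then 1.61 (q listed as 0) in I4 and 1.21 (q = 0.00131) in H6 of experiment N, and in H6 of experiment B the ratio was 1.17 (q = 0.0575). TGFB3 rose 1.18-fold in H6 of experiment N (q = 0.0437) in the authors' deposited table and was not called elsewhere. The receptor genes TGFBR1 and TGFBR2 were called in no comparison, with ratios of at most 1.16 in the authors' deposited table. The 3 TGF-beta genes and the receptor genes were picked with their values known. The list's median log2 fold lay between -0.05 and -0.02 in the 4 comparisons.

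Among 25 integrins, matrix and filament partners of FN1, TGFBI and VIM, 24 were tested throughout, 2 rose in all 4 and 1 fell. FERMT1, an integrin activator of epithelium, was lower by factors of 1.74 to 2.26 in the authors' deposited table. The epithelial keratins KRT8 (by factors of 1.28 to 1.33) and KRT18 (1.20 to 1.31) were higher in the authors' deposited table. A list of 9 other genes held transglutaminases, their inactive relative EPB42 and F13B, a carrier subunit that is not a transglutaminase. None was called in all 4, 2 were tested throughout, and none reached 1 RPKM on average. TGM2 was thus the abundant member of its family here.

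**Figure D4:**
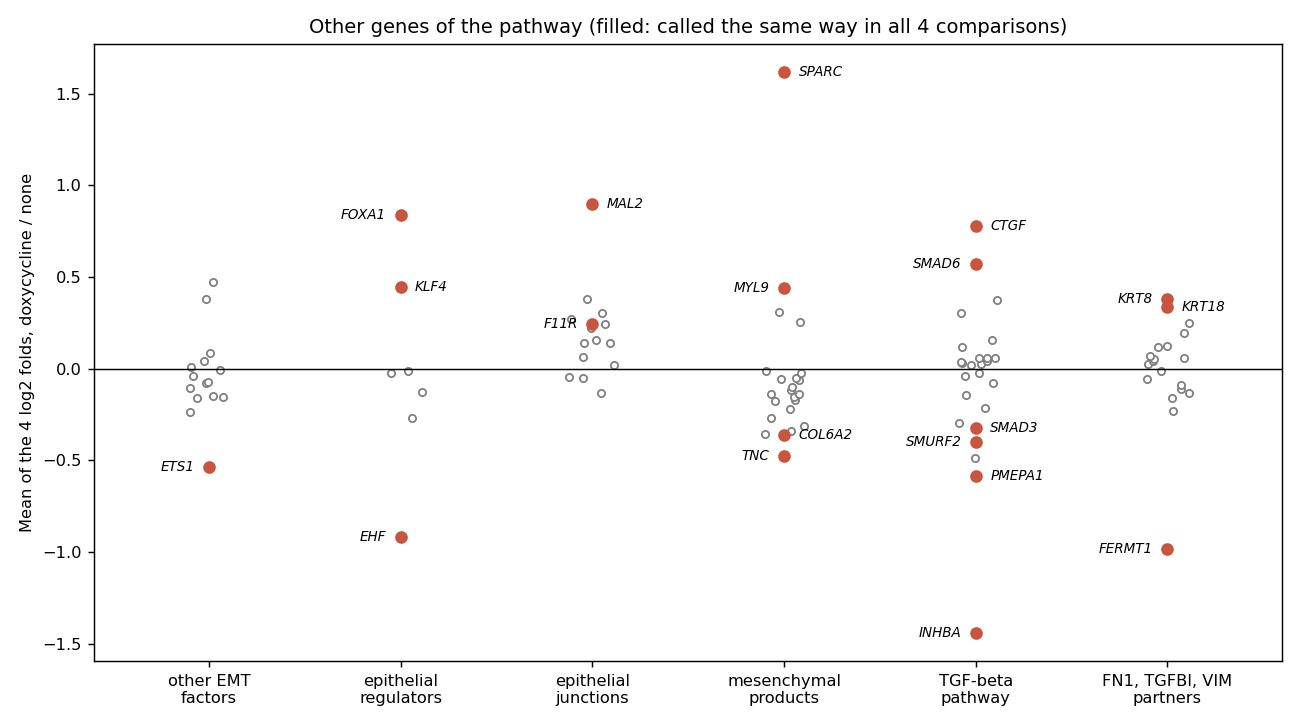
Mean of the 4 log2 folds (y axis) of the other genes of the transition, by list; filled and named points were called the same way in all 4 comparisons (1 such gene of the TGF-beta pathway is not shown), and open points are other genes with a mean level of at least 1 RPKM. Filled points lie on both sides of 0 in 4 of the 6 lists shown.

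As a check of the cells, the luminal keratins and HOXB13 were present, at 25.1 to 127 RPKM in the authors' deposited table, and KLK3, the androgen-induced gene of prostate-specific antigen, was nearly absent (at most 0.00695 RPKM). HOXB13, a homeobox factor of prostate, was higher by factors of 1.40 to 1.84 in the authors' deposited table. Of 15 markers of fibroblasts, leukocytes and endothelium, 4 had a mean level of at least 1 RPKM and none was called throughout; 0 or 1 was called higher and 0 to 2 lower in a comparison. Their summed level in experiments N and B was 29.99 then 26.2 RPKM in untreated I4 and 28.2 then 24.7 RPKM in treated I4, and 46.2 then 43.3 RPKM in untreated H6 and 44.4 then 41.7 RPKM in treated H6. The macrophage marker CD68, at 16.1 to 27.4 RPKM, made up most of it. The fibroblast marker COL1A1 came next, at 6.23 to 17.7 RPKM in the authors' deposited table, so the sum mainly follows these genes. The other leukocyte markers PTPRC (0.0279 to 0.0515 RPKM) and CD14 (0.137 to 0.200 RPKM) were low in the authors' deposited table. The T-cell marker CD3E was listed at 0 in 3 of the 4 comparisons. The markers called higher were COL3A1 in I4 of experiment N (8.83-fold, at 0.188 RPKM, q = 2.81e-05) and LUM in H6 of experiment N. COL1A1 was called lower in H6 of experiment N (1.16-fold, q = 0.0244). PECAM1 was called lower there and in both clones in experiment B. The part of such cells in the results was not tested.

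The genes whose 4 log2 folds lay nearest to those of the 3 members called throughout were found by Euclidean distance among 10323 other genes of at least 1 RPKM. For TGM2 the nearest was ESM1, a secreted proteoglycan (distance 0.12), followed by TGFBI (0.25) and SERPINB2, a plasminogen activator inhibitor (0.27). TGFBI had ESM1 (0.21), TGM2 (0.25) and IGFBP3 (0.44) nearest. SNAI2 had a separate set, with CALB1 (0.13), the chloride channel gene ANO1 (0.14) and PALMD (0.16). ESM1 was lower by factors of 1.94 to 2.79 and CALB1 lower by factors of 1.63 to 1.69 in the authors' deposited table. The distance rests on 4 values per gene.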

How the data were processed

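Poly(A)-selected RNA of 23 wells was sequenced, and samples were grouped by clone, experiment and doxycycline from the labels. The single table used was made by the authors, with hg38 as the build per the submitters' processing notes; the sources used here do not name the aligner, the counting program or the test. It holds 4 comparisons without values per library. The authors' deposited level is the higher group mean; how it was made is not stated, and its RPKM unit was inferred from steps in level times exon length. The authors' deposited fold is a signed ratio, and the deposited q-value an adjusted p-value by an unstated method; 71 to 195 genes per comparison have a q listed as 0.

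Here the lower mean was computed as level divided by fold, folds were put on the log2 scale, and calls used q under 0.05. Exon lengths came from GENCODE v29 (99.6% of rows matched), promoters from RefSeq, and CCN2 was matched as CTGF. Scripts ran in Python 3.11.15 with pandas 2.3.3 and were tested on simulated data. The members and lists were chosen with earlier results of these data known. All members were named, with up to 4 genes of each list called in all 4 comparisons, ranked by their largest q-value, and the 3 nearest genes of each member called in all 4. PMEPA1, SMAD3, SMAD6, ZEB2, GRHL2, ESRP1, ESRP2, KLF5, F13B, EPB42 and the catenins, CDH11, TGFBR1, TGFBR2, TGFB1, TGFB2 and TGFB3 lie outside this rule. So do the named markers of fibroblasts, leukocytes and endothelium. Some genes of the lists that this rule covers are counted but not reported here by name.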

Additional observations from a re-analysis of the deposited data

How the results depend on the processing

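No paired analysis was possible because the deposited table holds no value per library, so neither a replicate block nor leaving out a replicate could be run. Of 120 results under alternatives, 106 stayed within the limits set (1.5 times for counts, 0.1 log2 for differences), 14 moved and 0 reversed sign. Part of these outcomes was fixed beforehand. Centring on all genes shifts the members by a constant of at most 0.035 log2, so it could not pass the limit. A count of 0 cannot drop under a stricter cut-off, a pseudocount cannot reverse a sign, and counts have no sign. The 106 and the 0 are therefore no measure of robustness. In H6 in experiment N, 7 members were called at q under 0.05, 4 at q under 0.01 and 4 with a fold of at least 1.5; ZEB1, VIM and CDH1 were the calls lost at q under 0.01. In H6 in experiment B the count went from 5 to 3 with a fold of at least 1.5. TGM2, TGFBI and SNAI2 fell under every alternative; with clone H6 alone, 1 member (VIM) was called higher in both experiments. Of the other genes of the transition, 3 higher and 3 lower were left at a fold of at least 1.5, and 17 were lower in both experiments of H6. A pseudocount changed the untreated clone difference (log2, H6 over I4) of low genes. In experiment N it took SNAI1 from 0.41 to 0.31 (pseudocount 0.1) and 0.096 (pseudocount 1), CDH1 from -0.45 to -0.31 and -0.079, and TGFBI from 1.00 to 0.69 (pseudocount 1). In experiment B, with pseudocount 1, CDH1 went from 0.30 to 0.062 and TGFBI from 1.08 to 0.77. CDH1 thus has no settled order between untreated clones. Depth limits SNAI1 and CDH1 most.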
